A study of Mus musculus with 2 samples.

Results

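Cycling leukocytes are white blood cells caught while copying their DNA or dividing. Here they are the cells of the retinal pigment epithelium (RPE) and choroid of mouse eyes that carried at least 3 unique molecular identifiers (UMIs, each one captured RNA molecule) summed over Mki67, Top2a and Birc5. Cells had to hold at least 1000 UMIs and 300 detected genes, with under 10% of UMIs from mitochondrial genes. The rule found 86 cycling cells among 3982 cells of the KO library and 109 among 3418 cells of the flox library, which is 195 of 7400 cells in all.

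The study asked how interleukin-17 signalling bears on degeneration of the RPE. It measured RNA in single leukocytes from 2 libraries, with 1 library per genotype. The KO library came from mice labelled IL-17RA CKO and the flox library from mice labelled IL-17ra fl, and the mice of both had received sodium iodate (NaIO3, a compound toxic to the RPE) at 20 mg per kg of body weight. Both were sorted for live cells bearing CD45, the surface phosphatase shared by leukocytes. The cell type that lost the receptor, the part of the gene removed, the number of animals pooled, their age and the time after injection are stated in none of the sources used. With 1 library per genotype no difference between genotypes, and none between cells, has a replicate check. The 95% intervals below are exact (Clopper-Pearson for shares, Poisson for levels, conditional binomial for ratios) and cover counting error only.

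A cell that divides first duplicates its chromosomes in S phase and then separates them in G2 and M phase. Ki-67, encoded by Mki67, coats the chromosomes in mitosis. Topoisomerase II alpha, encoded by Top2a, untangles the copied DNA strands. Survivin, encoded by Birc5, belongs to the complex that checks the attachment of chromosomes to the spindle and also blocks cell death. All 3 messages accumulate late in the cycle, so a rule built on them favours cells from late S phase to mitosis. Most mature lymphocytes and monocytes rest, T cells divide after antigen meets their receptor, and precursors of dendritic cells keep dividing outside the bone marrow.

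The messages of late cell-cycle genes are switched together through short promoter elements: the cell cycle genes homology region (CHR) bound by the DREAM complex, and the CCAAT box bound by NF-Y. The promoters of the genes behind the rule are shown because they put the 3 members of the rule side by side. Each is the 250 bases before the start of the gene in RefSeq (build GRCm38.p6), 5′ to 3′ on the strand of the gene, with CHR motifs (TTTGAA or TTCGAA) and CCAAT boxes in capitals in either orientation, where the reverse strand reads TTCAAA or ATTGG. No base lay in both motifs. Mki67 is on the minus strand at chr7:135716380-135716629, Top2a on the minus strand at chr11:99024190-99024439, Birc5 on the plus strand at chr11:117848987-117849236 and Cdk1, the kinase that drives entry into mitosis, on the minus strand at chr10:69352913-69353162.
Mki67: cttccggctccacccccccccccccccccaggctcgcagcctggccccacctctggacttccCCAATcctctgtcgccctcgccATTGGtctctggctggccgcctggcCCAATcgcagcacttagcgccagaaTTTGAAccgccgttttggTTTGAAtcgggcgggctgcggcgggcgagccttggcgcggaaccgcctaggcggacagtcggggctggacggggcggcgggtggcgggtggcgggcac
Top2a: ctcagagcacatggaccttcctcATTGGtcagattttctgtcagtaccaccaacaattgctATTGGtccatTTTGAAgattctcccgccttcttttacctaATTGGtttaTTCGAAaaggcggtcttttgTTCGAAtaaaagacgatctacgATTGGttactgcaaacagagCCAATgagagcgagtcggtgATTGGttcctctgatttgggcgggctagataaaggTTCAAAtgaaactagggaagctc
Birc5: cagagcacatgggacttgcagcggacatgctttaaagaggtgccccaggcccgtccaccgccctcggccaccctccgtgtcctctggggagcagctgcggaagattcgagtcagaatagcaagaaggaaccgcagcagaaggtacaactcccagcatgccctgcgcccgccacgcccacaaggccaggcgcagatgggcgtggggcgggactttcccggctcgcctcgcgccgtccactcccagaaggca
Cdk1: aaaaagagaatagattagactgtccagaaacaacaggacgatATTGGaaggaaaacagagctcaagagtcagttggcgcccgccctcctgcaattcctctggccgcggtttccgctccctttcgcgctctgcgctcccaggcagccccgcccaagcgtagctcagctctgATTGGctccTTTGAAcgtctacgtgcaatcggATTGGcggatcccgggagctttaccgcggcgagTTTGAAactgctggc
The Mki67 window held 2 CHR and 3 CCAAT matches, the Top2a window 4 CHR and 6 CCAAT matches and the Cdk1 window 2 CHR and 3 CCAAT matches. The Birc5 window held neither set of letters. Both motifs occurred together in 35.9% of the 39 matched promoters of the 48 G2/M genes used below, in 10.3% of the 29 matched promoters of the 37 S-phase genes and in 7.0% of all 27025 promoters. These are matches of letters, and binding was not measured.

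Il17ra, the gene named by the genotype labels, was read in both libraries. In cycling cells it stood at 55.2 CPM (UMIs of the gene scaled to a common total of all UMIs of the cells; 95% interval 44.1 to 68.1, 86 UMIs) in the KO library and 60.1 CPM (49.7 to 72.1, 116 UMIs) in the flox library, a KO to flox ratio of 0.918 (0.686 to 1.224). Over all cells kept the levels were 123 CPM in KO and 132 CPM in flox. The UMIs come from the 3′ end of the message, so a deletion elsewhere in the gene would leave them, and the labels were not checked by this gene. Non-cycling cells held 126 CPM in KO and 136 CPM in flox, more than the cycling cells of either library. Both sets pool all lineages, whose makeup differs between them. B cells, for example, were 1.16% of cycling and 23.8% of non-cycling cells in KO, and 2.75% and 17.9% in flox. The Il17ra levels are not given within a lineage, so the difference cannot be told apart from makeup.

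The cells kept held 35816512 UMIs in KO and 35068850 in flox, with medians of 7714 and 8744 UMIs per cell. The deposited KO table listed 4096 called cells and the flox one listed 1002803 barcodes that had not been filtered, and 4 barcodes of 1000 UMIs or more were in both. The doublet caller Scrublet marked 2 of the 86 cycling cells in KO and 2 of the 109 in flox. Judged by Xist and 4 Y-linked genes, cells of both sexes were in both libraries: 39.3% of KO cells and 65.8% of flox cells read as female, and 34.6% of KO cells and 15.7% of flox cells as male. Ptprc, which encodes CD45, was seen in 86 of 86 cycling cells in KO and 105 of 109 in flox. The RPE genes Rlbp1 and Rpe65 summed to 0 and 2 UMIs in the cycling cells of KO and to 0 and 0 in those of flox. One flox cell held 9770 UMIs of Hbb-bs, a haemoglobin gene of red blood cells, among 24172 UMIs, and it passed the rule with 4 UMIs.

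The strength of the cycling signal differed widely among the cells chosen. Of the KO cells, 32 stood exactly at 3 UMIs, 23 at 4 to 9 and 31 at 10 or more, up to 196. Of the flox cells, 48 stood at 3 UMIs, 31 at 4 to 9 and 30 at 10 or more, up to 192. All 3 genes were seen in 26 cells of KO and 33 of flox, and 1 gene alone carried the sum in 30 and 44. These values chose the cells and are given as a description. In the cycling cells Mki67 was at 357 CPM in KO and 291 CPM in flox, Top2a at 671 CPM in KO and 556 CPM in flox, and Birc5 at 239 CPM in KO and 226 CPM in flox. In non-cycling cells Mki67 was at 6.16 CPM in KO and 6.97 CPM in flox, and Birc5 at 0.467 CPM in KO and 0.845 CPM in flox. Barcodes of 100 UMIs or fewer in the flox library, which hold free RNA, carried 22.1 CPM of Mki67, 22.7 CPM of Top2a and 11.8 CPM of Birc5.

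A second reading of division came from the S-phase list (37 genes, among them Pcna, the clamp of DNA polymerase) and the G2/M list (48 genes, among them the mitotic cyclins), neither of which holds a gene of the rule, although they belong to the same programme. Their UMIs were summed per 10000 UMIs of each cell and are called the cycle load. Just inside the rule, at 3 UMIs, the median cycle load was 18.3 in KO and 14.1 in flox. Just outside, at 2 UMIs, it was 11.8 in KO and 12.4 in flox, and at 0 UMIs 9.58 in KO and 8.80 in flox. At 10 UMIs or more it was 105 in KO and 102 in flox. Every cell of that upper tier exceeded the 99th percentile of the cells at 0 (28.8 in KO, 29.2 in flox), whereas at 3 UMIs 5 of 32 KO cells (15.6%) and 4 of 48 flox cells (8.33%) did. At 2 UMIs, outside the rule, 2 of 119 KO cells (1.68%) and 10 of 123 flox cells (8.13%) did. By this measure the cells just inside and just outside the rule were alike in flox. The tier of 10 or more was set after these values were seen. Of all cycling cells, 47 of 86 (54.7%) in KO and 52 of 109 (47.7%) in flox lay above that percentile.

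**Figure D1:**
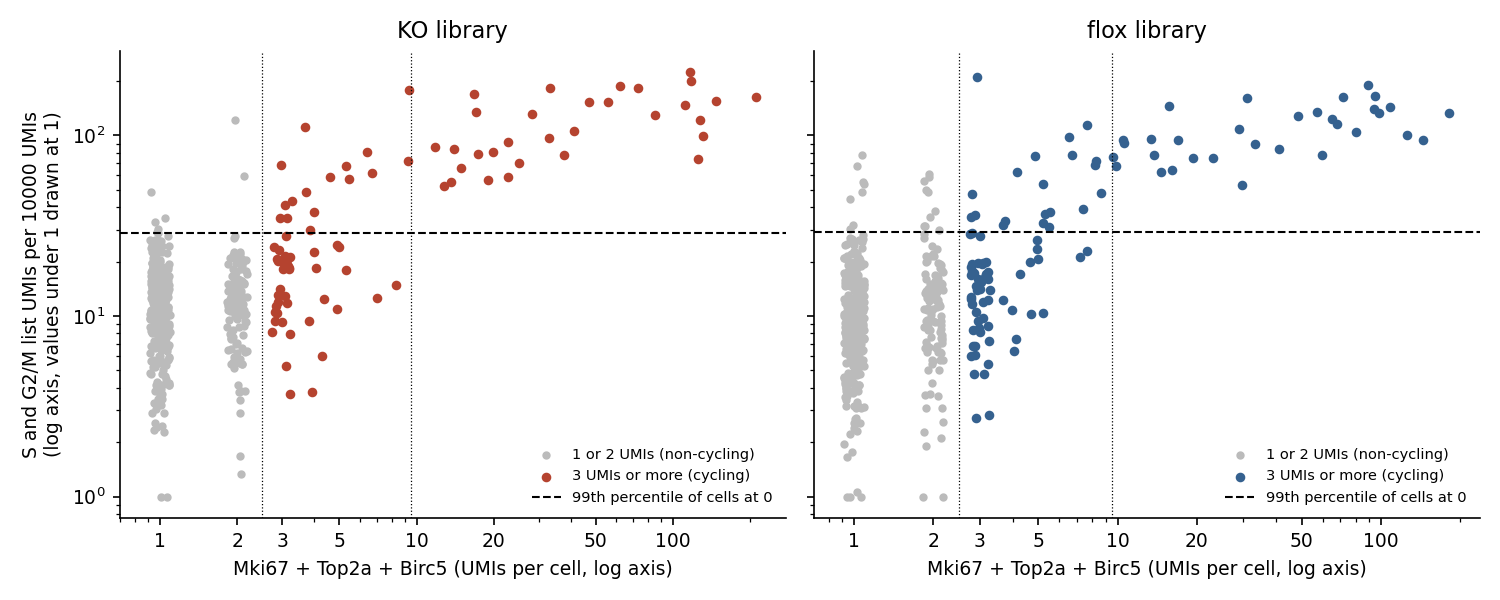
Each point is a cell with at least 1 UMI of the 3 rule genes, placed by their sum (UMIs, log axis, spread sideways for visibility) and by its cycle load (S-phase and G2/M list UMIs per 10000 UMIs, log axis), KO left and flox right; dotted lines mark the rule and the tier of 10 or more. All 31 KO cells and all 30 flox cells at 10 UMIs or more lie above the dashed 99th percentile of cells at 0, while most cells at 3 UMIs lie below it.

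T cells were the largest lineage among the cycling leukocytes, and few B cells were among them. Lineages were set per cell by UMIs of Cd3e (a chain of the T cell receptor complex), Cd8a (the co-receptor of cytotoxic T cells), Cd79a (the signalling chain of the B cell receptor), Ncr1 (the NK cell receptor NKp46), Lyz2 (the lysozyme of monocytes and macrophages) and Cd209a (a lectin of a class of dendritic cells and monocyte-derived cells). T cells were 57 of the 86 cycling cells in KO (66.3%) and 55 of the 109 in flox (50.5%). At 10 UMIs or more they were 17 of 31 in KO (54.8%) and 13 of 30 in flox (43.3%). With the lineage thresholds doubled 52 of the KO cells and 51 of the flox cells were T cells, and with all thresholds at 1 UMI 43 and 43. Among non-cycling cells T cells were 40.4% in KO and 39.1% in flox. T cells with Cd8a were 48.8% of cycling cells in KO and 27.5% in flox, and 22.5% of non-cycling cells in KO and 16.3% in flox. This class needs 1 UMI of Cd8a, which is more easily seen in cycling T cells, as they were deeper. Among non-cycling T cells Cd8b1, the other CD8 chain, was seen in 953 and Cd8a in 876 in KO, and in 592 and 541 in flox. The class without Cd8a therefore holds some T cells with Cd8b1. B cells were 1 of 86 cycling cells in KO (1.16%) and 3 of 109 in flox (2.75%), although they were 23.8% of non-cycling cells in KO and 17.9% in flox. Lyz2 myeloid cells were 6.98% of cycling cells in KO and 8.26% in flox, and 17.6% of non-cycling cells in KO and 23.8% in flox. NK cells were 5.81% of cycling cells in KO and 8.26% in flox, and 7.19% of non-cycling cells in KO and 6.38% in flox. The 2 KO cells and 4 flox cells that carried genes of more than one lineage were kept apart as mixed.

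Turned round, 57 of 1631 T cells cycled in KO (3.50%, 95% interval 2.66 to 4.50) and 55 of 1348 in flox (4.08%, 3.09 to 5.28). Of T cells with Cd8a, 42 of 918 cycled in KO (4.58%) and 30 of 571 in flox (5.25%), and of T cells without Cd8a, 15 of 713 in KO (2.10%) and 25 of 777 in flox (3.22%). NK cells gave 5 of 285 in KO (1.75%, 0.572 to 4.05) and 9 of 220 in flox (4.09%). Dendritic cells with Cd209a gave 4 of 102 in KO (3.92%, 1.08 to 9.74) and 7 of 139 in flox (5.04%), and Lyz2 myeloid cells 6 of 692 in KO (0.867%) and 9 of 795 in flox (1.13%). With the lineage thresholds doubled the Lyz2 cells gave 3 of 690 in KO (0.435%) and 6 of 769 in flox (0.780%). Lyz2 is also abundant in free RNA, at 4483 CPM in the flox barcodes of 100 UMIs or fewer, and no cell of the upper tier held more than 8 UMIs of it in KO or 20 in flox, so the Lyz2 label of strongly cycling cells is uncertain. B cells were lowest of these lineages in both libraries, with 1 of 929 in KO (0.108%, 0.00272 to 0.598) and 3 of 594 in flox (0.505%). The intervals of T, NK and Cd209a cells overlapped within each library, and those of B cells lay below that of T cells in both. B cells were also the shallowest of these, with median depths of 6362 UMIs in KO and 6001 in flox for those not cycling, against 7763 in KO and 8504 in flox for T cells. No B cell reached 10 UMIs in either library, which allows a share of up to 0.323% of 929 cells in KO and 0.505% of 594 in flox.

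Depth moved with the rule, since a cell with more RNA more easily shows 3 UMIs. Cycling T cells had medians of 13121 UMIs in KO and 11611 in flox, against 7763 in KO and 8504 in flox for the other T cells. Thinning every cell to 3000 UMIs, which left out 286 cells of KO and 195 of flox, gave 147 of 1536 T cells with a UMI of the 3 genes in KO (9.57%) and 124 of 1293 in flox (9.59%). The same thinning gave 1.13% of B cells in KO and 2.23% in flox, and 4.73% of Lyz2 cells in KO and 5.24% in flox. Lineages and the Cd8a split were kept as set before thinning. T cells were above B cells at this equal depth in both libraries.

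By the rule, the share of cycling cells was lower in KO than in flox over all cells, and this did not hold within each sex. It was 2.16% in KO (1.73 to 2.66) and 3.19% in flox (2.63 to 3.83), a ratio of 0.677 (0.504 to 0.907). At equal depth, thinned to 3000 UMIs, 6.03% of KO cells and 7.23% of flox cells had a UMI of the 3 genes. That ratio was 0.835 (0.69 to 1.007), and at 3 UMIs or more after thinning 0.845 (0.499 to 1.43). Both of these intervals span 1. Among female cells, 16 of 1565 cycled in KO (1.02%) and 78 of 2248 in flox (3.47%), a ratio of 0.295 (0.161 to 0.509). Among male cells, 49 of 1379 cycled in KO (3.55%) and 11 of 537 in flox (2.05%), a ratio of 1.735 (0.890 to 3.70). Female T cells gave 9 of 510 in KO (1.77%) and 43 of 961 in flox (4.48%), and male T cells 34 of 666 in KO (5.11%) and 7 of 199 in flox (3.52%). The part of sex, and of the animals behind it, was not tested. In the tier of 10 UMIs or more the shares were 31 of 3982 cells in KO (0.779%) and 30 of 3418 in flox (0.878%). The ratio over T cells was 0.857 (0.581 to 1.264), over T cells with Cd8a 0.871 (0.532 to 1.441) and over T cells without Cd8a 0.654 (0.321 to 1.290), each with an interval that spans 1. At equal depth the T cells with Cd8a stood the other way, at 13.1% with a UMI in KO and 8.86% in flox, so no order of the genotypes is read for them. The T cells without Cd8a with a UMI were 31 of 648 at equal depth in KO (4.78%) and 75 of 740 in flox (10.1%), a ratio of 0.472 (0.3 to 0.726). Without thinning it was 0.517 (0.318 to 0.824) at 2 UMIs or more. Both cuts are looser than the rule. At equal depth and 3 UMIs or more, 5 of 648 in KO and 8 of 740 in flox gave 0.714 (0.184 to 2.47). The tier of 10 UMIs or more held 4 of 713 of them in KO (0.561%) and 7 of 777 in flox (0.901%). Within male cells their ratio was 1.127 (0.271 to 6.60).

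**Figure D2:**
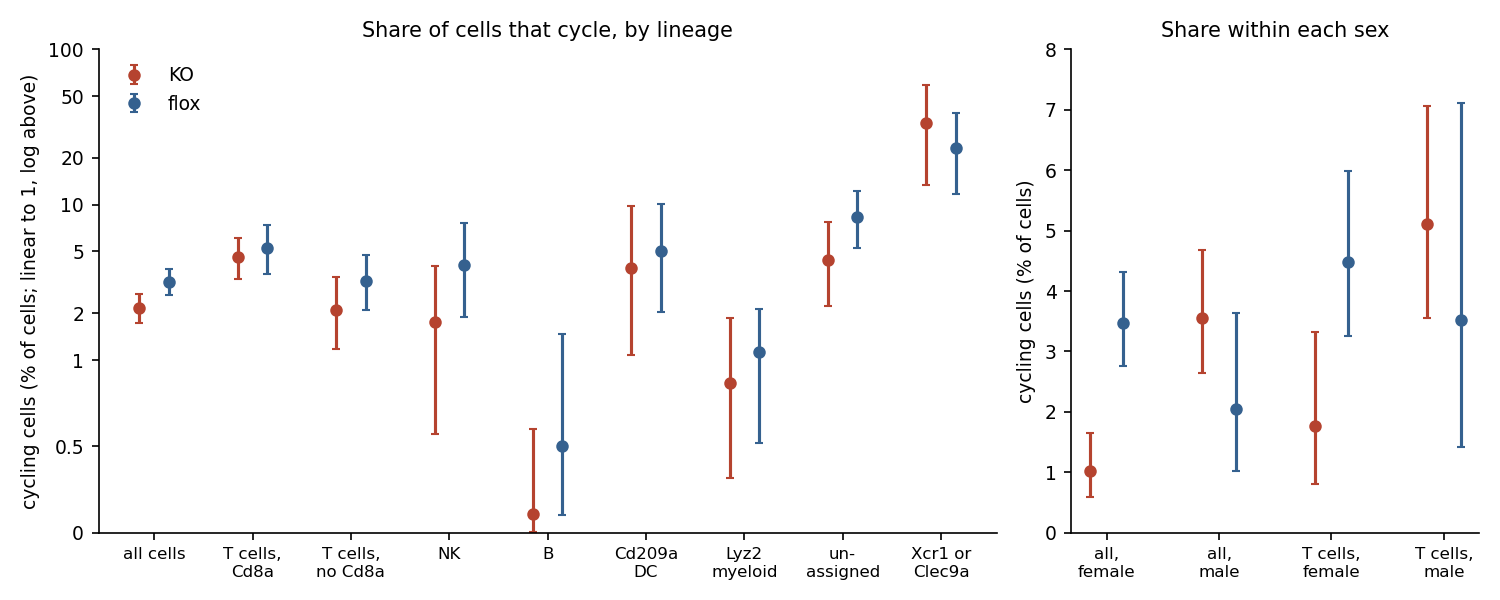
Points give the share of cells that cycle (% of cells) with 95% Clopper-Pearson intervals, KO left of flox, by lineage (left panel, axis linear to 1% and logarithmic above) and within cells read as female or male (right panel, linear axis). Among the lineages drawn, B cells are lowest and cells with Xcr1 or Clec9a highest in both libraries. The order of KO and flox turns between female and male cells.

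High shares of cycling cells lay outside the 6 lineage genes. Of 249 unassigned cells in KO 11 cycled (4.42%), and of 266 in flox 22 did (8.27%). They were split by genes chosen after these cells were seen. Cells with at least 2 UMIs of Xcr1 and Clec9a, which in the mouse mark the dendritic cells that present antigen to CD8 T cells, cycled in 6 of 18 cases in KO (33.3%, 13.3 to 59.0) and in 10 of 43 in flox (23.3%, 11.8 to 38.6). Both intervals lay above those of all cells in the same library, and 4 of the 6 KO cells and 5 of the 10 flox cells reached the upper tier. These cells were deep, with a median of 32760 UMIs for the cycling ones in KO. Unassigned cells with the complement genes C1qa, C1qb and C1qc, which mark microglia and tissue macrophages, cycled in 1 of 12 cases in KO and 3 of 21 in flox. Thinned to 3000 UMIs, 1 of 11 of these C1q cells in KO (9.09%) and 6 of 15 in flox (40.0%, 16.3 to 67.7) had a UMI of the rule genes. The Xcr1 or Clec9a cells gave 5 of 18 in KO (27.8%) and 10 of 43 in flox (23.3%, 11.8 to 38.6). At this equal depth the order of both kinds turned in flox, with overlapping intervals. The neutrophil gene S100a8 gave 0 UMIs in the cycling cells of both libraries.

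The Xcr1 or Clec9a cells that cycled were set against those that did not. They were chosen by genes of the same programme, and many list genes reached the UMI minimum through the cycling cells, so the counts of division genes describe the choice. Here and below a gene counts as higher or lower when it had at least 20 UMIs in both sets together and the 95% interval of its ratio lay beyond 1.5-fold, a rule of size and not a test. In KO, 14 of 15 G2/M genes and 13 of 15 S-phase genes were higher, beside 4.6% higher and 4.79% lower of all genes measured. In flox, 38 of 38 G2/M genes and 7 of 18 S-phase genes were higher, beside 3.73% higher and 3.7% lower. Cdk1 had 24 UMIs in the 6 cycling cells and 0 in the 12 others of KO, and 34 UMIs in the 10 cycling cells and 2 in the 33 others of flox. Hmgb2, a chromatin protein abundant in dividing cells, stood at 1700 CPM in cycling and 249 CPM in non-cycling cells of KO, and at 2521 CPM in cycling and 133 CPM in non-cycling cells of flox. Irf8, a transcription factor these cells require, differed less: it stood at 1326 CPM in cycling and 1513 CPM in non-cycling cells of KO, and at 809 CPM in cycling and 1283 CPM in non-cycling cells of flox. Of the dendritic cell genes measured, 1 of 10 was higher and 0 lower in KO, and 0 of 14 were higher and 3 lower in flox. In flox, 11 of 12 interferon-induced genes were lower in the cycling cells, with a median log2 ratio of -2.36 (-2.19 with genes at 0 set to the floor of 3 UMIs). Isg15, a ubiquitin-like protein induced by interferon, stood there at 74.4 CPM in cycling and 617 CPM in non-cycling cells, and Irf7, which amplifies interferon production, at 87.4 CPM in cycling and 476 CPM in non-cycling cells. In KO, 0 of 3 such genes measured were lower, and Isg15 stood at 113 CPM in cycling and 109 CPM in non-cycling cells. Ccr7 and Fscn1, genes of mature dendritic cells, had 0 and 0 UMIs in the cycling cells of flox, against 27 and 33 in the non-cycling ones, and all UMIs of each gene lay in 1 cell. Their part in the interferon values was not tested.

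In the upper tier the cells spread over the S and the G2/M side of the cycle. S-phase UMIs exceeded G2/M UMIs in 13 of 31 cells in KO (41.9%) and 7 of 30 in flox (23.3%). In the tier of 3 to 9 UMIs they did so in 40 of 55 cells in KO (72.7%) and 50 of 79 in flox (63.3%). Among non-cycling cells the share was 64.4% in KO and 64.7% in flox. The upper tier of T cells with Cd8a led with S-phase genes in 4 of 13 cells in KO and 2 of 6 in flox, and all Lyz2 cycling cells in 5 of 6 in KO and 2 of 9 in flox. All Cd209a cycling cells led with S-phase genes in 3 of 4 cases in KO and 7 of 7 in flox. Of those, 2 in KO and 6 in flox stood exactly at 3 UMIs with a cycle load of 3.69 to 8.14 in KO and 2.72 to 19.6 in flox, under the 99th percentile of cells at 0. At 5 UMIs or more 2 of 102 Cd209a cells were left in KO and 1 of 139 in flox. NK cells did in 1 of 5 in KO and 5 of 9 in flox.

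**Figure D3:**
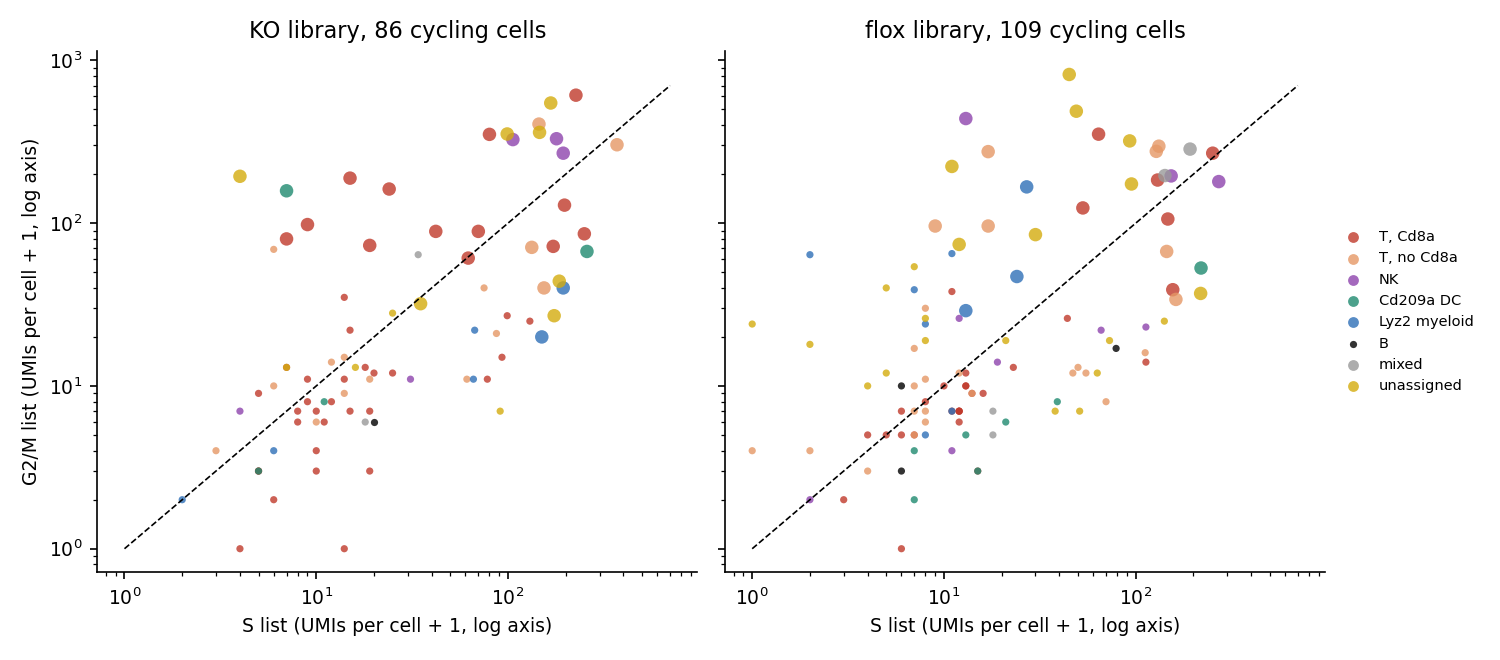
Each point is a cycling cell, placed by its UMIs of the S-phase list and of the G2/M list (UMIs + 1, log axes), KO left and flox right, coloured by lineage; large points have 10 or more UMIs of the rule genes, and the dashed line marks equal sums. The large points fill both sides of the line, with 13 of 31 in KO and 7 of 30 in flox on the S-phase side, while small points crowd near the low corner.

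Cycling T cells were set against the non-cycling T cells of their own library, 57 against 1574 cells in KO and 55 against 1293 in flox. In KO 36 of 36 measured S-phase genes, 40 of 40 G2/M genes and 22 of 22 chromatin and cytoskeleton genes were higher, beside 4.17% higher and 1.36% lower of all genes. In flox 32 of 36, 41 of 41 and 22 of 22 were higher, beside 3.82% higher and 0.94% lower. The median log2 ratio was 2.51 in KO and 2.13 in flox for S phase, 5.12 in KO and 4.45 in flox for G2/M, and 2.57 in KO and 2.22 in flox for chromatin and cytoskeleton. Over all genes it was 0.04 in KO and 0.05 in flox. Over both libraries 315 genes were higher in each, 45 lower in each and 5 opposite, of 11462 measured. The cells were chosen by 3 genes of the same programme, so these values describe the choice and support nothing beyond it.

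The replication genes ran through the whole S-phase machinery. Pcna stood at 275 CPM in cycling and 83.8 CPM in non-cycling T cells of KO, and at 196 CPM in cycling and 85.7 CPM in non-cycling T cells of flox. Rrm2, the subunit of ribonucleotide reductase that limits the supply of DNA precursors, stood at 173 CPM in cycling and 3.51 CPM in non-cycling T cells of KO (49.3-fold, 35.2 to 70.2), and at 162 CPM in cycling and 2.59 CPM in non-cycling T cells of flox (62.6-fold, 41.8 to 96.6). The helicase subunit Mcm5 was 8.5-fold higher in KO and 5.68-fold in flox, and thymidylate synthase, encoded by Tyms, 8.07-fold in KO and 9.11-fold in flox. Pcna was the least separated of these, being present at more than 80 CPM in T cells that did not cycle.

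Several mitotic genes were nearly unseen in non-cycling T cells, although the whole G2/M list still gave those a median of 3 UMIs per cell in each library, against 12 in cycling T cells of KO and 9 in those of flox. Ccna2, the cyclin A of S and G2 phase, had 73 UMIs in the cycling and 0 in the non-cycling T cells of KO, and 49 in the cycling and 3 in the non-cycling T cells of flox. Ube2c, the ubiquitin carrier of the anaphase-promoting complex, stood at 244 CPM in cycling and 0.914 CPM in non-cycling T cells of KO, and at 235 CPM in cycling and 1.38 CPM in non-cycling T cells of flox. Ccnb2, a mitotic cyclin, was 260-fold higher in KO (128 to 615) and 88.8-fold in flox (49.0 to 174). Cdk1 was 38.3-fold higher in KO (25.6 to 58.5) and 23.7-fold in flox (15.3 to 37.2). A single cell could weigh heavily: 37.5% of the Ube2c UMIs of cycling KO T cells came from 1 cell.

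Genes that pack new chromatin and build the spindle were the most abundant of the programme. Hmgb2 stood at 2921 CPM in cycling and 352 CPM in non-cycling T cells of KO, and at 2302 CPM in cycling and 393 CPM in non-cycling T cells of flox. Stmn1, which controls microtubule turnover, stood at 875 CPM in cycling and 35.3 CPM in non-cycling T cells of KO (24.8-fold), and at 825 CPM in cycling and 28.4 CPM in non-cycling T cells of flox (29.0-fold). The linker histone gene Hist1h1b stood at 641 CPM in cycling and 1.98 CPM in non-cycling T cells of KO, and at 421 CPM in cycling and 1.47 CPM in non-cycling T cells of flox. Histone genes of this cluster are near-identical copies, and their messages mostly lack the poly(A) tail that the assay primes on, so reads may be split among copies and levels are uncertain. Outside the lists, the 12 genes ranked highest by the smaller ratio of both libraries were Hist1h2ab, Pclaf, Hist1h2an, Spc24, Kif4, Hist1h2bj, Hist1h2ai, Fbxo5, Ncapg2, Hist1h3f, Cenpp and Arhgap11a. Pclaf, a PCNA-binding protein, had 330 UMIs in cycling and 12 in non-cycling T cells of KO, and 242 in cycling and 22 in non-cycling T cells of flox. Spc24, a subunit of the kinetochore, was 80.7-fold higher in KO and 139-fold in flox.

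Genes of cell cycle entry divided by role. Of 17 measured in KO, 9 were higher and 1 lower, beside 4.17% higher and 1.36% lower of all genes. Beside 3.82% of all genes, 8 of 16 were higher in flox. The E2F family factors, which switch on replication genes or shut them off again, were among them in both libraries: E2f1 was 14.2-fold higher in KO and 7.09-fold in flox, and E2f8, a repressing member, 175-fold in KO (54.9 to 889) and 46.5-fold in flox (19.2 to 129). Mybl2, a partner of the DREAM-related activator complex, was 25.2-fold higher in KO and 16.3-fold in flox. The D-type cyclins of resting T cells did not move with them. Ccnd2 stood at 248 CPM in cycling and 486 CPM in non-cycling T cells of KO, 1.96-fold lower (1.71 to 2.26), and at 368 CPM in cycling and 539 CPM in non-cycling T cells of flox, short of the size rule. Cdk6, their kinase, stood at 114 CPM in cycling and 126 CPM in non-cycling T cells of KO, and at 134 CPM in cycling and 132 CPM in non-cycling T cells of flox.

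Of the 17 quiescence genes 0 were higher and 1 lower in KO, and 1 was higher and 2 lower in flox, with a median log2 ratio of -0.35 in each. Of all genes 4.17% were higher and 1.36% lower in KO, and 3.82% higher and 0.94% lower in flox. Btg1, which restrains proliferation, stood at 1024 CPM in cycling and 1675 CPM in non-cycling T cells of KO (1.64-fold lower), and at 1067 CPM in cycling and 1543 CPM in non-cycling T cells of flox. Bcl2, which guards resting lymphocytes from death, stood at 406 CPM in cycling and 627 CPM in non-cycling T cells of KO, and at 376 CPM in cycling and 675 CPM in non-cycling T cells of flox (1.79-fold lower). In the upper tier 4 of the 17 genes were lower and 1 higher in each library, with median log2 ratios of -0.73 in KO and -0.95 in flox. Btg1 and Bcl2 were lower there in both libraries: Btg1 3.46-fold in KO and 2.16-fold in flox, and Bcl2 3.51-fold in KO and 3.98-fold in flox. Beside them stood 6.06% of genes higher and 2.66% lower in KO, and 5.53% higher and 1.51% lower in flox. Cdkn2c, an inhibitor of the D-cyclin kinases, was the exception, 2.83-fold higher in the cycling T cells of flox (1.97 to 3.99), with 29.4 CPM in cycling and 16.9 CPM in non-cycling T cells of KO. Of 23 biosynthesis genes 3 were higher in KO and 1 in flox, beside 4.17% of all genes in KO and 3.82% in flox. The flox count is near that share. Gapdh, a glycolytic enzyme, was higher in both, 2.24-fold in KO and 1.76-fold in flox.

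The T cells were also split by tier, which is a split by the rule's own genes, so the counts describe the choice. In the 17 KO and 13 flox T cells of the upper tier, 40 of 40 G2/M genes were higher in each library, with median log2 ratios of 6.27 in KO and 5.72 in flox. In the 40 KO and 42 flox T cells at 3 to 9 UMIs, 9 of 31 G2/M genes were higher in KO and 6 of 28 in flox, and 25 of 34 S-phase genes in KO and 16 of 34 in flox. Beside these stood 1.25% of genes higher and 0.601% lower in KO, and 1.23% higher and 0.633% lower in flox. Naive T cell genes were lower in 6 of 10 cases in KO and 2 of 10 in flox at 3 to 9 UMIs.

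Genes of gamma-delta and type 17 T cells gave few UMIs in cycling T cells, but the number of cells behind them is small. Cd163l1, a scavenger receptor of gamma-delta T cells, had 1 UMI in the cycling and 1256 in the non-cycling T cells of KO, and 1 in the cycling and 1468 in the non-cycling T cells of flox. By cells, Cd163l1 was seen in 1 of 57 cycling T cells of KO (0.0444 to 9.39%), against 4.64% of the non-cycling ones, and in 1 of 55 of flox (0.0460 to 9.72%), against 7.66%. Both intervals hold the share of the non-cycling cells, so a difference was not detectable by cells. Tcrg-C1, a gamma chain of their receptor, had 2 UMIs in the cycling and 791 in the non-cycling T cells of KO, and 0 in the cycling and 940 in the non-cycling T cells of flox. Il23r, the receptor that sustains type 17 cells, had 0 UMIs in the cycling and 593 in the non-cycling T cells of KO, and 3 in the cycling and 604 in the non-cycling T cells of flox. Il17a, the cytokine whose receptor the genotype labels name, was seen in 0 of 57 cycling T cells of KO, which allows a share of up to 5.26%, and in 2 of 55 of flox. It was seen in 51 of 1574 non-cycling T cells of KO (3.24%) and 53 of 1293 of flox (4.10%), so a lower share among cycling cells was not detectable at this number of cells. B cells, which should lack it, showed it in 1 of 928 cells in KO at a median of 6362 UMIs and in 0 of 591 in flox at 6001 UMIs. Of the 11 regulatory and type 17 genes 5 were lower in KO, beside 1.36% of all genes. Beside 0.94% lower and 3.82% higher of all genes, 4 were lower and 1 higher in flox. The 1 higher was Ikzf2, the Helios factor of regulatory and some innate-like T cells, at 469 CPM in cycling and 270 CPM in non-cycling T cells of flox, and at 143 CPM in cycling and 103 CPM in non-cycling T cells of KO.

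Of the 10 naive T cell genes 7 were lower in cycling T cells of KO (median log2 ratio -1.37) and 2 in those of flox (-0.37). Of all genes 1.36% were lower in KO and 0.94% in flox. Il7r, the receptor for the survival cytokine interleukin-7, stood at 195 CPM in cycling and 630 CPM in non-cycling T cells of KO (3.23-fold lower, 2.77 to 3.79), and at 146 CPM in cycling and 617 CPM in non-cycling T cells of flox (4.23-fold lower, 3.52 to 5.14). Lef1, a factor of naive T cells, stood at 134 CPM in cycling and 323 CPM in non-cycling T cells of KO, and at 214 CPM in cycling and 271 CPM in non-cycling T cells of flox. The difference between the libraries in these ratios was not tested.

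Effector genes were divided. Of 25 effector and inhibitory receptor genes 4 were higher and 2 lower in KO, and 5 higher and 1 lower in flox, beside 4.17% higher and 1.36% lower of all genes in KO and 3.82% higher and 0.94% lower in flox. In the upper tier 3 were higher and 2 lower in KO, and 0 higher and 7 lower in flox. Beside these stood 6.06% of genes higher and 2.66% lower in KO, and 5.53% higher and 1.51% lower in flox. At 3 to 9 UMIs 4 were higher and 2 lower in KO, and 6 higher and 2 lower in flox. There 1.25% of all genes were higher and 0.601% lower in KO, and 1.23% higher and 0.633% lower in flox. Ctla4, an inhibitory receptor, stood at 512 CPM in cycling and 279 CPM in non-cycling T cells of KO (1.84-fold, 1.66 to 2.03), and at 563 CPM in cycling and 318 CPM in non-cycling T cells of flox (1.77-fold, 1.6 to 1.95). Gzma, a granzyme, was 2.21-fold higher in KO and 2.04-fold in flox, but 36.0% of its cycling UMIs in KO and 49.1% in flox lay in 1 cell. Gzmk, a granzyme of memory CD8 T cells, stood at 254 CPM in cycling and 116 CPM in non-cycling T cells of KO (2.18-fold), and at 134 CPM in cycling and 150 CPM in non-cycling T cells of flox. Gzmb, the granzyme of armed killer cells, was 1.92-fold higher in flox with 47.4% of its UMIs in 1 cell, and in the upper tier of flox it was 2.81-fold lower. Itgae, the integrin of tissue-resident T cells, had 1 UMI in the cycling T cells of KO and 35 in those of flox.

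Outside the lists, 8 genes were lower in both libraries by the rule for naming: Igf1r, Tmem176b, Tmem176a, Ramp1, Bach2, Selenop, Cdk11b and Vps37b. Bach2, a repressor that holds T cells in a resting or memory state, stood at 74.0 CPM in cycling and 272 CPM in non-cycling T cells of KO (3.68-fold lower, 2.87 to 4.80), and at 111 CPM in cycling and 267 CPM in non-cycling T cells of flox (2.40-fold lower, 1.94 to 3.0). Igf1r, the receptor for insulin-like growth factor, had 6 UMIs in cycling and 882 in non-cycling T cells of KO, and 7 in cycling and 912 in non-cycling T cells of flox. Tmem176a and Tmem176b, membrane proteins known from type 17 T cells and dendritic cells, had 2 and 3 UMIs in the cycling T cells of KO, against 975 and 1013 in the non-cycling ones. In flox they had 19 and 15 UMIs in cycling T cells, against 1149 and 1246 in non-cycling ones.

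**Figure D4:**
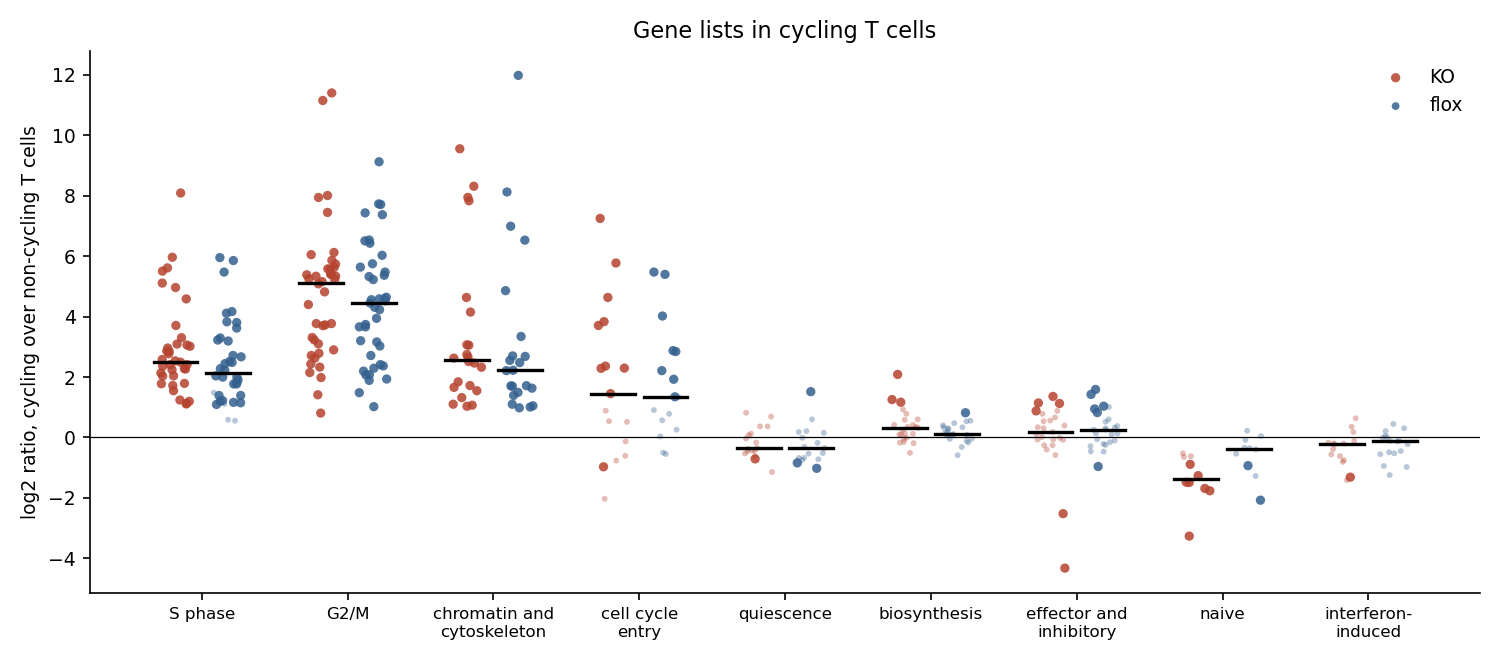
Each point is a gene of a list (at least 20 UMIs; rule genes left out), placed by its log2 ratio of cycling over non-cycling T cells, KO left of flox; large dark points are beyond 1.5-fold with their whole 95% interval, and bars mark the list median. S-phase, G2/M and chromatin genes lie above 0 in both libraries (G2/M medians 5.12 in KO and 4.45 in flox), quiescence genes lie near 0, and naive genes lie lower in KO than in flox.

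Subsets of the cycling T cells could be read by their co-receptors. Cd4, which marks helper T cells, was seen in 11 of 57 cycling T cells of KO (19.3%) and 20 of 55 of flox (36.4%), and in 17.5% of non-cycling T cells of KO and 25.6% of flox. It was seen in 0 of 928 B cells of KO and 0 of 591 of flox, at median depths of 6362 and 6001 UMIs, which allows shares of up to 0.323% and 0.508%. The cycling T cells were deeper, at 13121 UMIs in KO and 11611 in flox. Foxp3, the factor of regulatory T cells, was seen in 2 of 57 cells in KO and 4 of 55 in flox. Because the lineage rule asks for 1 UMI of Cd3e, a few cells were T cells by that gene alone. No UMI of Cd3d, Cd3g or Trac was found in 3 of 57 cycling T cells of KO, 1 of which held 28 UMIs of Ncr1, and in 2 of 55 of flox, 1 of which held 250 UMIs of the class II gene H2-Aa.

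The same contrast was made within the co-receptor classes. Among T cells with Cd8a, 42 cycling against 876 other cells in KO and 30 against 541 in flox, 38 of 39 G2/M genes and 33 of 35 S-phase genes were higher in KO, beside 3.64% higher and 0.649% lower of all genes. In flox 33 of 33 G2/M genes and 25 of 33 S-phase genes were higher, beside 2.73% higher and 0.229% lower. Naive T cell genes were lower in 5 of 10 cases in KO and 1 of 10 in flox, and quiescence genes in 0 of 17 cases in each library. Among the 25 cycling and 752 other T cells of flox without Cd8a, 31 of 31 G2/M genes and 26 of 34 S-phase genes were higher and 5 of 17 quiescence genes lower, beside 3.56% higher and 1.71% lower. There 5 of 9 dendritic cell genes were higher too, among them H2-Aa, whose UMIs in cycling flox T cells lay to 96.2% in 1 cell. The 22 cycling and 244 other unassigned cells of flox gave 42 of 42 G2/M and 19 of 29 S-phase genes higher, beside 3.47% higher and 9.61% lower, but these cells mix several kinds.

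Between genotypes, division genes and interferon-induced genes were compared in the cycling T cells. Of 37 S-phase genes 0 were higher or lower in KO, and of 45 G2/M genes 2 were higher, Cenpe and Cdc20, beside 0.623% higher and 1.39% lower of all genes measured. In cycling T cells with Cd8a 5 of 40 G2/M genes were higher in KO, beside 0.783% higher and 1.09% lower of all genes. Of the interferon-induced genes 7 of 13 were lower in KO and 0 higher, with a median log2 ratio of -1.53. The dendritic cell list was lower in 5 of 8 cases with a median of -2.76, and there 77.3% to 97.9% of the flox UMIs of the 5 genes, Irf8, H2-Aa, H2-Ab1, H2-Eb1 and Cd74, lay in 1 cell. Among T cells with a UMI of Cd3d, Cd3g or Trac the interferon median was -1.48, and with each gene's highest cell left out -1.50. The non-cycling T cells showed the same direction, with 16 of 17 lower and a median of -1.81, beside 0.77% higher and 1.9% lower of all genes. In the cycling T cells with Cd8a 8 of 11 were lower (median -2.03). In the non-cycling ones with Cd8a 15 of 16 were lower (median -1.70), beside 1.36% higher and 0.853% lower. The interferon list was chosen with a difference between these libraries already known, so its direction is no independent evidence.

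Isg15 stood at 58.7 CPM in cycling T cells of KO and 326 CPM in those of flox, 5.56-fold lower in KO (4.09 to 7.68). In non-cycling T cells it stood at 87.5 CPM in KO and 282 CPM in flox, 3.22-fold lower (3.01 to 3.45). Ifit3, an antiviral protein that binds viral RNA complexes, stood at 17.6 CPM in cycling T cells of KO and 162 CPM in those of flox (9.22-fold lower, 5.39 to 17), and at 45.2 CPM in non-cycling T cells of KO and 165 CPM in those of flox (3.65-fold lower). The intervals of the cycling cells lay beyond those of the non-cycling ones for both genes. The list had a median log2 ratio of -1.53 over 13 genes in cycling and -1.81 over 17 in non-cycling T cells. With Cd8a it was -2.03 over 11 in cycling and -1.70 over 16 in non-cycling ones. The medians cover unlike sets of genes, so no order of cycling and non-cycling cells is read from them. The intervals leave out the spread between cells, and the difference was not tested. Irf7 stood at 36.4 CPM in KO and 119 CPM in flox cycling T cells (3.27-fold lower). Ddx58, the RNA sensor RIG-I, stood at 59.9 CPM in KO and 74.2 CPM in flox cycling T cells, and Ifit2 at 15.3 CPM in KO and 19.2 CPM in flox, both with an interval that spans 1.

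**Figure D5:**
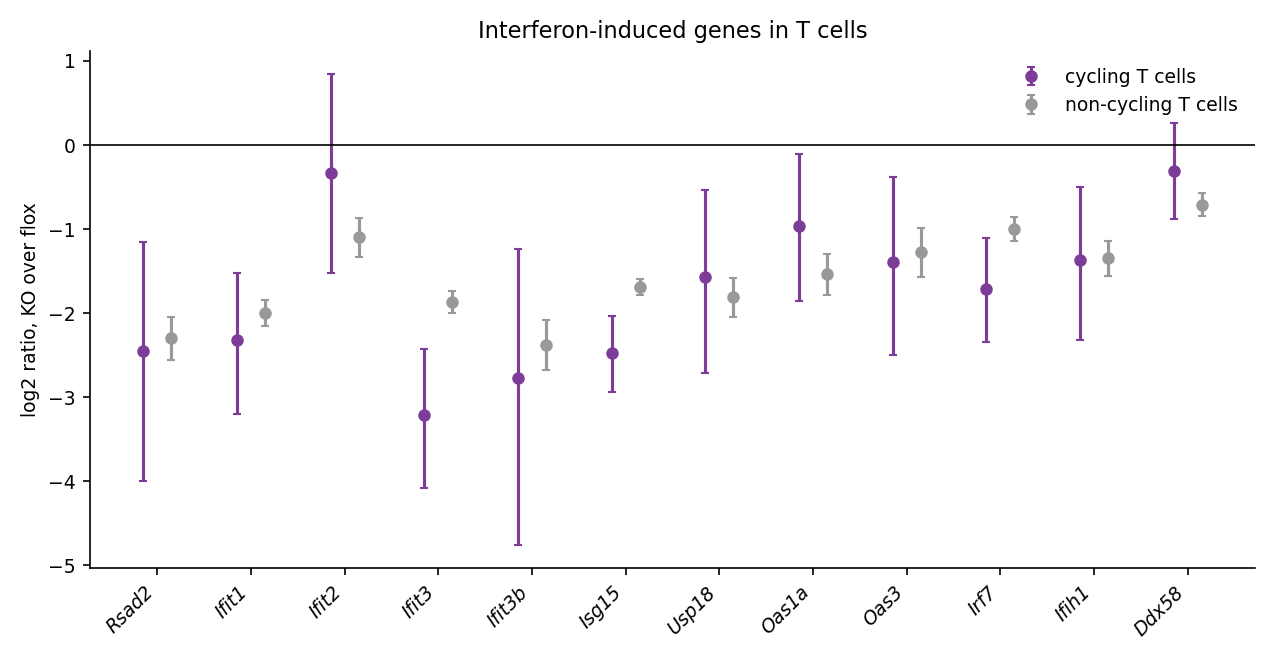
Points give the log2 ratio of KO over flox for 12 of the 13 interferon-induced genes with at least 20 UMIs in cycling T cells, with 95% intervals that cover counting error only; cycling T cells stand left of non-cycling T cells. All 12 points of cycling T cells lie below 0, and the intervals of Ifit2 and Ddx58 cross it.

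By the rule for naming, the genes outside the lists with the largest KO to flox ratios in cycling T cells were Eif2s3y, Ccl3, Rgs16, Ccl4, Litaf, Cep55, Kcnq5 and Gem. Eif2s3y is Y-linked, and its 52 UMIs in KO and 11 in flox move with the share of male cells. Ccl4, a chemokine of activated CD8 T cells, stood at 494 CPM in KO and 157 CPM in flox (3.14-fold, 2.57 to 3.87), and in non-cycling T cells at 504 CPM in KO and 229 CPM in flox. Its relative Ccl3 stood at 71.6 CPM in KO and 17.9 CPM in flox cycling T cells, and at 25.8 CPM in KO and 25.3 CPM in flox non-cycling ones. Of the 25 genes of the effector list 2 were higher and 2 lower in cycling T cells of KO, with a median log2 ratio of 0.11. Of all genes 0.623% were higher and 1.39% lower. Gzma, of the effector list, stood at 1354 CPM in KO and 211 CPM in flox cycling T cells (6.42-fold, 5.45 to 7.60), and at 614 CPM in KO and 103 CPM in flox non-cycling ones. As given above, a large part of its cycling UMIs lay in 1 cell of each library, which this interval does not cover. By cells, Gzma was seen in 18 of 57 cycling T cells of KO (31.6%, 19.9 to 45.2) and 11 of 55 of flox (20.0%, 10.4 to 33.0). Those intervals overlap. The lowest by that rule were Ifitm3, Areg, Rtp4, Cxcl10, Cpm, Lrig1, Cst3 and Yes1. Rtp4 and Cxcl10, both interferon-induced, were 6.37-fold and 6.26-fold lower in KO. Of the flox UMIs, 91.5% of those of Ifitm3 and 77.2% of those of Cst3 lay in 1 cell. In cycling T cells with Cd8a the genes named were Ccl3, Ap1s2, Litaf, Rgs1, 1700097N02Rik, Ptms, Rgs16 and Gem as higher, and Rtp4, Yes1, Tsix, Ms4a4c, Xist, Gch1, Hgsnat and Aig1 as lower. Rgs1, a brake on chemokine receptor signals, stood there at 631 CPM in KO and 175 CPM in flox (3.59-fold, 2.80 to 4.67). Xist and Tsix come from the X inactivation centre and move with the share of female cells; Xist stood at 149 CPM in KO and 557 CPM in flox. The part of sex in the other ratios was not tested.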

How the data were processed

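Single-cell RNA-seq counts of 2 libraries were used, 1 per genotype. Per the labels' protocols, RPE and choroid were digested, sorted for viable CD45+ cells and prepared with the 10x Genomics single cell 3′ v2 kit; the flox barcode list is longer than that kit's list would allow, so the kit version is uncertain. Per the submitters' processing notes, Cell Ranger and mm10 were used, and per the file headers Cell Ranger 7.0.1 (KO) and 4 (flox), a difference that cannot be told apart from genotype. The deposited values are raw UMI counts per gene (32285 genes) and barcode. The KO table holds called cells, the flox table all 1002803 barcodes.

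Cells were kept by the filters given with the results. Lineages needed at least 1 UMI of Cd3e, 3 of Cd79a, 1 of Ncr1 without Cd3e, 2 of Cd209a or 5 of Lyz2; Cd8a needed 1. Doublets (Scrublet in scanpy 1.11.5, 56 cells in KO and 17 in flox) were kept, as the rule does not remove them. Counts were summed over cells and given as CPM, with intervals from scipy 1.17.1. No test was made. Genes named outside the lists had at least 50 UMIs in both sets together, 50 CPM and 10% of cells with a UMI in the higher set, and a 95% interval beyond 1.5-fold (in both libraries for cycling against non-cycling cells), ranked by ratio. Alternatives changed the cycling rule, depth, scaling, sex and single cells.

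The members and lists were chosen with earlier results of these data known. The ratio rule was tested on simulated counts for the KO cycling against non-cycling T cells (11856 genes): it called 89 of 100 genes raised 3-fold, 56 of 100 lowered 3-fold and 3 of 11656 unchanged ones. Simulated flox counts gave 11 of 11533 unchanged genes called, and those for KO over flox in cycling T cells 8 of 7502. The simulated counts carried Poisson error only, with no spread between cells. These rates therefore do not cover genes whose UMIs lie in few cells. Mx1, Mx2 and some other list members are not reported here by name. Gene positions came from GENCODE (GRCm38), promoters from RefSeq.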

Additional observations from a re-analysis of the deposited data

Results flagged for a closer look

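5 genes stood on opposite sides in cycling against non-cycling T cells of the 2 libraries, and none of these differences was tested. Klra7, a Ly49 receptor of NK and some T cells, had a log2 ratio of 1.10 in KO and -4.37 in flox. Ret, a receptor tyrosine kinase, had 1.46 in KO and -2.04 in flox. The class II genes H2-Aa (-1.62 in KO and 2.41 in flox), H2-Eb1 (-1.57 in KO and 1.82 in flox) and Cd74 (-1.52 in KO and 2.17 in flox) make up the rest. Of the cycling flox UMIs, 96.2% of those of H2-Aa, 94.4% of those of H2-Eb1 and 90.2% of those of Cd74 lay in 1 cell.

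Barcodes of the flox library with 100 UMIs or fewer, which no comparison used, held 182 UMIs of Mki67, Top2a and Birc5 together.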

How the results depend on the processing

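No paired analysis was possible because each genotype has 1 library. Of the ratios of KO to flox shares, that over all cells became 0.295 in female cells and 1.735 in male cells, that over T cells 0.394 and 1.451, that over T cells with Cd8a 0.497 in female cells, 1.474 with at least 1 UMI and 1.868 with at least 3 UMIs after thinning, and 1.555 when Cdk1, Ccna2 and Ube2c replaced the rule genes, and that over T cells without Cd8a 0.214 in female cells. Cycling against non-cycling T cells thinned to 3000 UMIs gave 158 higher and 28 lower genes in KO and 123 and 21 in flox, with median log2 ratios of 1.99 (S phase) and 3.37 (G2/M) in KO and 1.43 and 2.64 in flox; fewer UMIs were left. With at least 5 UMIs, flox medians were 2.79 and 5.25. With at least 10, chosen after seeing the data and set against all other T cells, KO had 307 lower genes and a G2/M median of 5.96, and flox 175 lower genes, medians of 2.77 and 5.64, and a naive median of -0.73. KO against flox in cycling T cells gave 8 higher and 23 lower genes after thinning, and 71 lower with each gene's highest cell left out (48 and 107 in the report). Kcnq5 turned to -0.57 at 10 or more UMIs, and Cst3 to 0.0035 among T cells with Cd3d, Cd3g or Trac; the causes were not tested. Within their intervals, yet on the other side of 1, were the T cell ratio at 5 UMIs (1.102) and 10 UMIs (1.081), thinned to 3 (1.193) and with Cdk1, Ccna2 and Ube2c (1.24), that with Cd8a at 2, 5 and 10 UMIs (1.135, 1.313, 1.348) and in male cells (1.41), and that without Cd8a in male cells (1.127). The interferon median ranged from -1.81 to -1.32. Scaling by the median ratio moved all genes by at most 0.02 log2. No ratio could be formed for Cd209a cells (male, or thinned to 3 UMIs or more) and male Lyz2 cells, where flox had 0 cycling cells. About 30 strongly cycling cells per library limit every ratio.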
